A study of Homo sapiens with 12 samples.

Results

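The genes described here encode the machinery of membrane trafficking: small GTPases, vesicle coats, tethers, fusion regulators, endosomal sorting proteins, and the channel and peptidase through which secretory proteins enter the endoplasmic reticulum. They were chosen by name from the 1676 genes of the deposited table (gene symbols that begin with RAB, ARF, ARL, VPS, SNX, COP, STX, SNAP, VAMP, TRAPP, SEC, EXOC, AP, CLT, TMED or GOLG in the form used for these families), with pseudogenes left out. The rule found 43 genes of the 1676, all annotated as protein-coding in GENCODE 29. That annotation holds 357 protein-coding genes with such names, so 12.0% of them were in the table, against 7.94% of all 19951 protein-coding genes. Both shares count genes that these cells may not express. The share among expressed genes could not be counted, so no over-representation is read from these shares. The listed share was 14.7% for RAB names (11 of 75), 14.6% for ARF and ARL names (6 of 41) and 12.3% for VPS and SNX names (8 of 65). None of the 11 TMED cargo receptors, none of the 8 COPI coat subunits and none of the 29 syntaxin, SNAP and VAMP genes was listed. Of the 6 SEC61 and SEC11 genes 5 were. In the wider role groups, 5 of 16 translocon and other SEC genes and 1 of 39 SNARE genes and regulators were listed. Nothing is read from subsets so small.

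RNA came from SH-SY5Y, a human neuroblastoma line that also makes its own tau, collected 24 h after transfection with a construct for tau, a protein that binds microtubules. Tau-WT was the reference construct. Tau-K174Q has glutamine in place of a lysine, which imitates acetylation, Tau-S199E has glutamate in place of a serine, which imitates phosphorylation, and Tau-K174Q:S199E has both changes. Each of the 4 constructs had 3 libraries (Tau-WT libraries 1, 2 and 3, Tau-K174Q libraries 4, 5 and 6, Tau-S199E libraries 10, 11 and 12, Tau-K174Q:S199E libraries 16, 17 and 18), and no untransfected cells were analysed here. All values below are standardised: the authors set each gene to mean 0 and SD 1 over the 12 libraries, so a value or a difference is in SD units of that gene. Levels cannot be compared between genes, and no depth can be read from the values. The endogenous and transfected tau cannot be separated in the values of MAPT, the gene of tau, whose group means ran from -0.66 ± 0.69 (Tau-S199E) to 0.86 ± 1.57 (Tau-K174Q:S199E; SD, n = 3). Of the noradrenergic neuroblastoma markers 0 of 19 were in the table, so the labelled cell type could not be checked on them. Of the mesenchymal neuroblastoma markers 3 of 12 were (CD44, SNAI2 and S100A6), and their mean ran from -1.32 to -0.76 over the Tau-WT libraries and from 0.64 to 1.83 over the Tau-S199E libraries. Their part in the results below was not tested. In whole cultures, a change in the kinds of cell present and a change in RNA per cell cannot be told apart.

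Proteins made for export or for membranes enter the endoplasmic reticulum through the Sec61 channel, lose their signal peptide to the signal peptidase, and leave in vesicles coated with COPII. ARF and RAB GTPases then mark each membrane of the Golgi and endosomes, recruit coats and tethers when bound to GTP, and so steer vesicles to their target, where SNARE proteins fuse the membranes. In neurons the same machinery supplies the axon and synapse and returns material to lysosomes, and much of this traffic runs on the microtubules that tau binds.

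A DNA sequence that many trafficking genes share is the Golgi stress element, ACGTGGC, which is known to turn on Golgi genes when the organelle is overloaded. It was searched on both strands (GCCACGT on the other) in RefSeq promoters of 250 bases before to 50 after each start site, and it can overlap the E-box CACGTG. A promoter was matched for 35 of the 43 genes. The element was found for 6 of these 35 (17.1%), against 4.78% of 15843 protein-coding genes, 6.40% of the 1282 table genes with a promoter and 3.22% of all 35116 promoters. The windows that hold it are shown because they belong to genes on both sides of the comparison described next: SEC23A, SEC24C, SEC11C and ARF1 were higher and RAB5A and RAB24 lower with Tau-S199E than with Tau-WT. Each line gives 100 bases before the RefSeq start site, which can differ from the gene bounds given below, and 25 from it onwards, 5′ to 3′ on the gene's strand (RefSeq, GRCh38.p14), with the element in capitals.
SEC23A: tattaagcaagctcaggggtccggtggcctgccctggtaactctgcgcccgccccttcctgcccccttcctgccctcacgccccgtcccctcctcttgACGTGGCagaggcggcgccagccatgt
SEC24C: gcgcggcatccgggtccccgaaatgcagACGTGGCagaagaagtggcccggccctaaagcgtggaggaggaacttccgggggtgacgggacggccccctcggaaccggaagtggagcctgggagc
SEC11C: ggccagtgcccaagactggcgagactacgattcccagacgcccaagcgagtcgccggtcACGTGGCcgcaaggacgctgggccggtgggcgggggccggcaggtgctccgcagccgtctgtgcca
ARF1: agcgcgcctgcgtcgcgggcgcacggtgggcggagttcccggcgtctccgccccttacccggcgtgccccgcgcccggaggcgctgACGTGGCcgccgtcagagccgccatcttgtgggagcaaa
RAB5A: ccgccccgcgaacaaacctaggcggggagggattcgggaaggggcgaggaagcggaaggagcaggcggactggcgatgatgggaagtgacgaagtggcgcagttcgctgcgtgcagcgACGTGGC
RAB24: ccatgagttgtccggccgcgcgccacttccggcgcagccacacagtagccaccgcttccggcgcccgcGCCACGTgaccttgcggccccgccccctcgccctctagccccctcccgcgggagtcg
The windows lie at chr14:39103211-39103335 (SEC23A, minus strand), chr10:73744272-73744396 (SEC24C, plus), chr18:59139784-59139908 (SEC11C, plus), chr1:228082608-228082732 (ARF1, plus), chr3:19946997-19947121 (RAB5A, plus) and chr5:177303695-177303819 (RAB24, minus). The element began 2 bases before the start site of SEC23A, 14 before that of ARF1, 32 before that of RAB24, 41 before that of SEC11C and 72 before that of SEC24C. The E-box was found for 5 of the 35 genes (14.3%, against 10.9% of protein-coding genes and 12.6% of the table genes) and the core of the cAMP response element, TGACGT, for 8 (22.9%, against 11.7% and 14.3%). These matches are descriptions of letters in a window, not of binding.

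Libraries 12 and 18 lay apart from the others of their construct. Tau-S199E library 12 was the Tau-S199E library farthest from Tau-WT in 39 of the 43 trafficking genes (90.7%, against 85.5% of the table), and Tau-K174Q:S199E library 18 lay nearer to the Tau-WT mean than to the Tau-S199E mean in 6 of 43, against 39 for library 16 and 35 for library 17. Counts that rest on them are given with and without them.

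**Figure D1:**
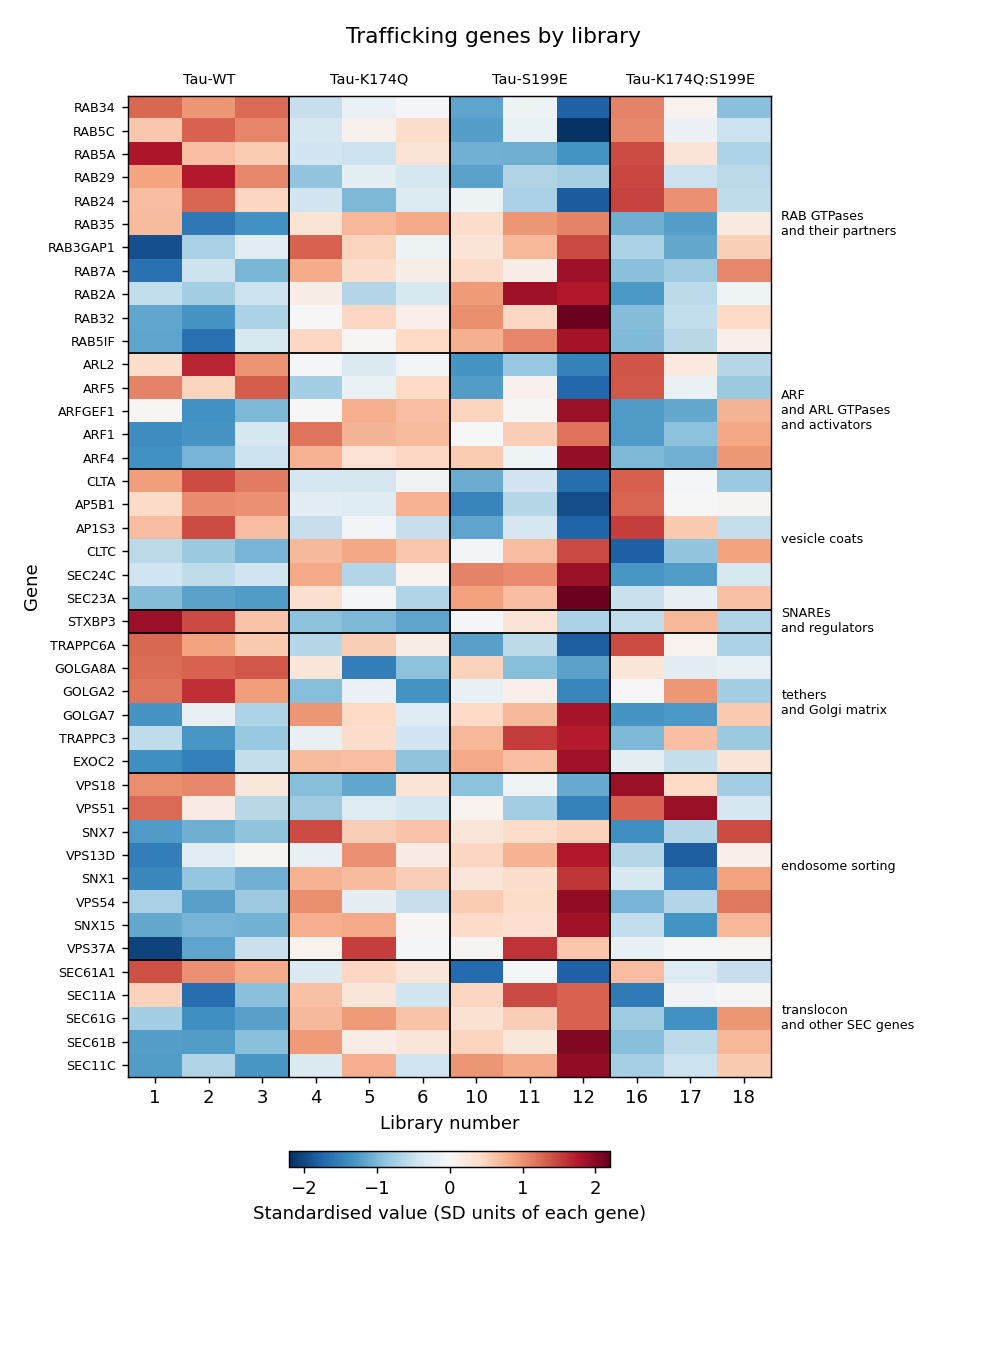
Standardised value (SD units of each gene, colour) of the trafficking genes (rows, 42 of the 43, grouped by role) in each of the 12 libraries (columns, grouped by construct). Of all 43 genes, library 12 is the most extreme Tau-S199E library in 39, and library 18 lies nearer to the Tau-WT mean than to the Tau-S199E mean in 6, against 39 for library 16 and 35 for library 17.

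The phosphorylation mimic alone is seen by setting Tau-S199E beside Tau-WT. Of the 43 trafficking genes 23 rose and 15 fell, and 5 did not pass (limma, Benjamini-Hochberg over 1676 genes, adjusted p under 0.05). In the table as a whole 90.0% of the genes passed, 48.3% rising and 41.8% falling, so the 38 of 43 were near the background. At an unadjusted p under 0.05 there were 40 (91.3% of the table), limma's moderated variances called 42 (98.4%), and a fit on the 6 libraries compared called 33 (72.0%). The table is itself a selection: every gene in it has a deposited adjusted p under 0.05 for a contrast that the header does not name, and the sign of that contrast was opposite to that of Tau-S199E minus Tau-WT in 43 of 43 trafficking genes. The direction and the count of these changes are therefore descriptions and not independent evidence. The median absolute difference was 1.87 SD units for the trafficking genes and 1.99 for all genes. The 3 libraries of each construct did not overlap in 40 of 43 genes (94.2% of the table).

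Without library 12, 19 of the 43 trafficking genes passed, where 49.7% of the table did, and without libraries 12 and 18 there were 33, where 79.4% of the table did. The calls of 19 genes held when any single Tau-WT or Tau-S199E library was left out, 10 rising (VPS37A, SEC61B, RAB2A, SEC24C, TRAPPC3, RAB32, SEC23A, EXOC2, SEC11C and RAB5IF) and 9 falling (SEC61A1, RAB5A, AP5B1, RAB5C, ARL2, AP1S3, RAB34, CLTA and RAB29). They are the same 19 that passed without library 12, where 49.7% of the table passed. The share of the table that held in every such fit was not counted, so these genes are not set apart from the table. The other 19 calls were each lost without library 12. Of these, 11 were also lost without library 1, 12 without library 2, 7 without library 3, 4 without library 10 and 7 without library 11.

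**Figure D2:**
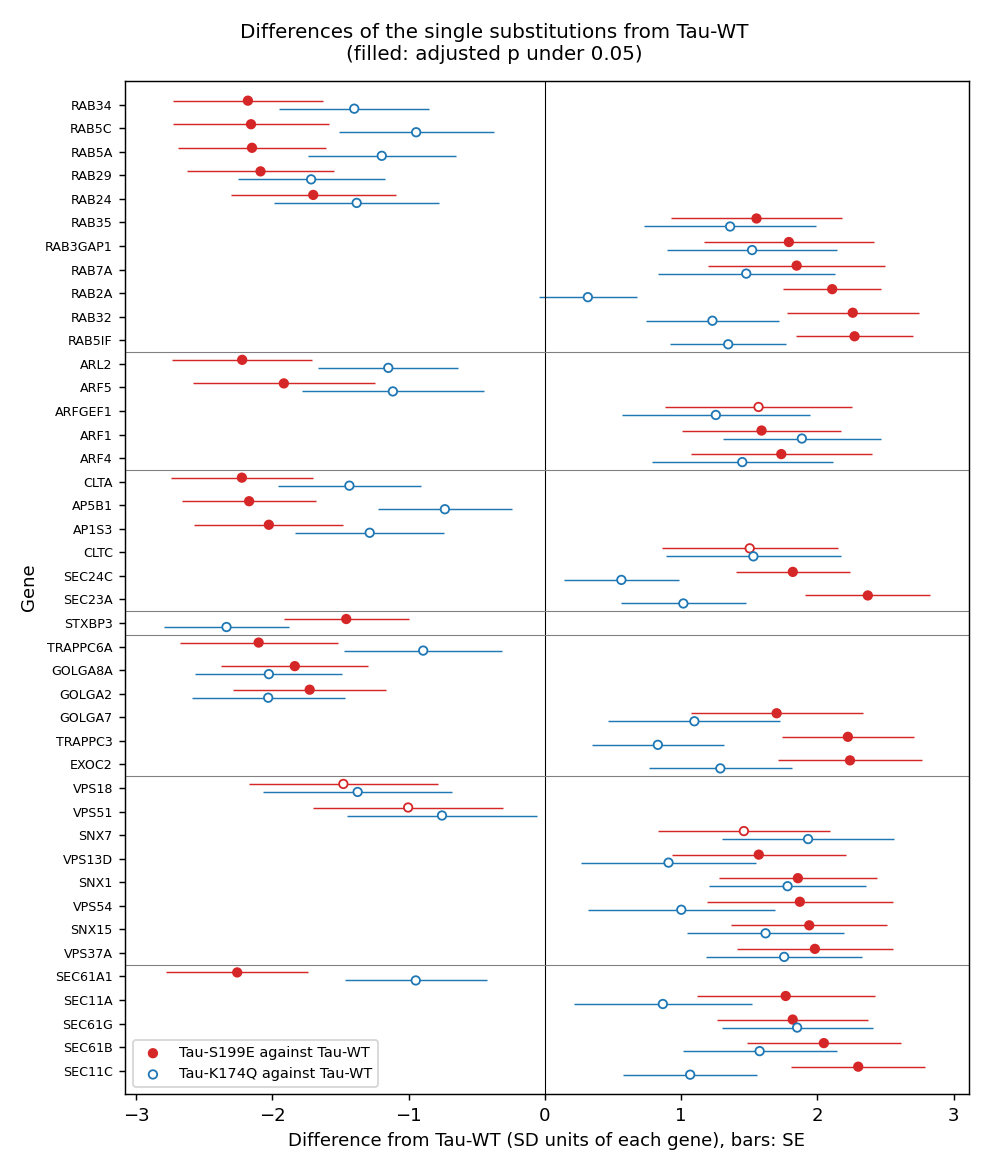
Difference from Tau-WT (SD units of each gene, horizontal axis) of 42 of the 43 trafficking genes with Tau-S199E (red) and with Tau-K174Q (blue), with SE as bars. Filled points have an adjusted p under 0.05, which 37 of these genes reached with Tau-S199E and 0 with Tau-K174Q.

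At the endoplasmic reticulum, the subunits of the Sec61 channel moved apart with Tau-S199E. SEC61A1, which encodes the pore itself (chromosome 3, 128051641 to 128071683, plus strand, GRCh38), had values of 1.41, 1.01 and 0.82 in the Tau-WT libraries, -0.32, 0.45 and 0.27 in those of Tau-K174Q, -1.71, -0.03 and -1.79 in those of Tau-S199E and 0.68, -0.28 and -0.51 in those of Tau-K174Q:S199E. All 3 Tau-S199E libraries lay below all 3 Tau-WT libraries, library 11 by the least, and SEC61A1 fell by 2.26 SD units (SE 0.52, adjusted p = 0.0104). The small subunit gene SEC61B (chromosome 9, 99222064 to 99230615, plus strand) had -1.21, -1.22 and -0.93 in the Tau-WT libraries, 0.93, 0.16 and 0.27 in those of Tau-K174Q, 0.49, 0.25 and 2.04 in those of Tau-S199E and -0.94, -0.57 and 0.73 in those of Tau-K174Q:S199E. It rose by 2.05 (SE 0.56, adjusted p = 0.0147), and every library of both single substitutions was above every Tau-WT library. SEC61G, the other small subunit, rose by 1.82 (SE 0.55), from -1.10 ± 0.32 with Tau-WT to 0.72 ± 0.50, a call lost without library 2 or 12. In the authors' deposited table the log2 fold change was 0.82 for SEC61A1, -2.04 for SEC61B and -2.54 for SEC61G.

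Both listed catalytic subunits of the signal peptidase rose with Tau-S199E. SEC11C (chromosome 18, 59139477 to 59158836, plus strand) had the smallest adjusted p of the trafficking genes in the authors' deposited table (0.000608, log2 fold change -2.73). Its values were -1.23, -0.66 and -1.27 in the Tau-WT libraries, -0.32, 0.80 and -0.44 in those of Tau-K174Q, 0.97, 0.83 and 1.94 in those of Tau-S199E and -0.73, -0.47 and 0.58 in those of Tau-K174Q:S199E. The Tau-K174Q libraries lay between those of Tau-WT and Tau-S199E, without overlap, and SEC11C rose by 2.30 with Tau-S199E (SE 0.49, adjusted p = 0.01). SEC11A rose by 1.77 (SE 0.65, adjusted p = 0.0335), but its Tau-WT library 1, at 0.50, overlapped the Tau-S199E libraries, which lay at 0.47, 1.45 and 1.29. That call was lost without library 2, 3, 11 or 12.

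Of the 6 vesicle coat genes 2 rose and 3 fell with Tau-S199E (48.3% and 41.8% of the table). The 2 that rose were both of the inner COPII coat, which buds cargo from the endoplasmic reticulum: SEC23A, whose protein drives GTP hydrolysis by SAR1, and SEC24C, a cargo-binding subunit. SEC23A (chromosome 14, 39031919 to 39109646, minus strand) had -0.95, -1.18 and -1.25 in the Tau-WT libraries, 0.35, -0.03 and -0.65 in those of Tau-K174Q, 0.90, 0.69 and 2.15 in those of Tau-S199E and -0.50, -0.18 and 0.65 in those of Tau-K174Q:S199E. Its rise of 2.37 (SE 0.46, adjusted p = 0.00981) was the largest among the trafficking genes, and each of the other constructs also lay above all Tau-WT libraries. SEC24C rose by 1.82 (SE 0.42, adjusted p = 0.0104), from -0.47 ± 0.07 to 1.35 ± 0.49, and with Tau-K174Q:S199E it was lowest, at -0.96 ± 0.52. The 3′ end of SEC24C overlaps AC022400.8 on the other strand, so its reads may be split.

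The clathrin chains, which form the outer shell of vesicles at the plasma membrane and the trans-Golgi network, differed in direction. CLTA, a light chain (chromosome 9, 36190856 to 36304781, plus strand), had 0.92, 1.43 and 1.15 in the Tau-WT libraries, -0.36, -0.37 and -0.07 in those of Tau-K174Q, -1.09, -0.43 and -1.66 in those of Tau-S199E and 1.32, -0.03 and -0.81 in those of Tau-K174Q:S199E. It fell by 2.22 with Tau-S199E (SE 0.52, adjusted p = 0.0105), and the Tau-K174Q libraries also lay below all Tau-WT libraries. The heavy chain gene CLTC was 1.50 higher with Tau-S199E (SE 0.64, adjusted p = 0.0527), which did not pass. AP1S3, the sigma subunit of an adaptor that links clathrin to cargo (chromosome 2, 223751686 to 223838027, minus strand), had 0.68, 1.44 and 0.67 in the Tau-WT libraries, -0.51, -0.06 and -0.51 in those of Tau-K174Q, -1.16, -0.37 and -1.76 in those of Tau-S199E and 1.52, 0.58 and -0.52 in those of Tau-K174Q:S199E. Its fall of 2.03 (SE 0.55, adjusted p = 0.0141) was joined by that of AP5B1, a subunit of the late endosomal adaptor AP-5, which fell by 2.17 (SE 0.49, adjusted p = 0.0104).

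All 11 RAB genes and partners passed with Tau-S199E, 6 rising and 5 falling, where 90.0% of the table passed (48.3% rising, 41.8% falling). The early endosome GTPases RAB5A and RAB5C both fell. RAB5A (chromosome 3, 19947079 to 19985175, plus strand) had 1.77, 0.66 and 0.56 in the Tau-WT libraries, -0.42, -0.48 and 0.30 in those of Tau-K174Q, -1.06, -1.08 and -1.32 in those of Tau-S199E and 1.44, 0.29 and -0.67 in those of Tau-K174Q:S199E. The Tau-S199E libraries were tightly grouped below all others, library 12 included, and RAB5A fell by 2.15 (SE 0.54, adjusted p = 0.0121). RAB5C fell by 2.16 (SE 0.57, adjusted p = 0.0133), from 0.98 ± 0.36 to -1.17 ± 1.02. RAB7A, which takes over from RAB5 on late endosomes, rose by 1.85 (SE 0.65, adjusted p = 0.0286), from -1.04 ± 0.59 to 0.81 ± 0.92. This last call was lost without library 1, 3 or 12, where the difference was as small as 1.32.

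Among the other RAB genes, RAB2A, which acts between the endoplasmic reticulum and Golgi, rose by 2.11 (SE 0.36, adjusted p = 0.00968). Its values were -0.53, -0.76 and -0.48 in the Tau-WT libraries, 0.93, 1.86 and 1.76 in those of Tau-S199E, 0.14, -0.64 and -0.33 in those of Tau-K174Q and -1.26, -0.59 and -0.10 in those of Tau-K174Q:S199E, so that only the Tau-S199E libraries stood clear of Tau-WT. RAB32, a GTPase of lysosome-related organelles (2.26, SE 0.49), RAB5IF, named as a RAB5-interacting factor (2.27, SE 0.43), RAB3GAP1, a subunit of a RAB3 GTPase-activating protein (1.79), and RAB35, which acts in endosomal recycling (1.55, SE 0.63, adjusted p = 0.0443), also rose. RAB34, which acts at the Golgi and in cilium formation (-2.18), RAB29, which recruits the kinase LRRK2 to membranes (-2.09), and RAB24, linked to autophagy (-1.70), fell. The calls of RAB3GAP1 and RAB24 were lost without library 1, 2, 11 or 12, and that of RAB35, whose libraries overlapped, without library 2, 3, 10, 11 or 12. RAB5IF shares its 3′ end on the same strand with an annotated read-through gene, TGIF2-RAB5IF, and on the other strand with SLA2. RAB24 shares its 3′ end on the same strand with MXD3. Reads there may therefore be split between genes. The same holds for RAB5C, after which 2 pseudogenes are named.

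The ARF family was divided as well with Tau-S199E: ARF1 and ARF4 rose, ARF5 and ARL2 fell and ARFGEF1 did not pass. ARF1, which recruits COPI and clathrin adaptors to the Golgi (chromosome 1, 228082660 to 228099212, plus strand), had -1.37, -1.30 and -0.36 in the Tau-WT libraries, 1.17, 0.75 and 0.70 in those of Tau-K174Q, -0.01, 0.54 and 1.20 in those of Tau-S199E and -1.25, -0.91 and 0.86 in those of Tau-K174Q:S199E. It rose by 1.59 with Tau-S199E (SE 0.58, adjusted p = 0.0324), and every library of both single substitutions lay above every Tau-WT library. ARF4 rose by 1.74 (SE 0.66), while ARF5 of the same family fell by 1.92 (SE 0.67, adjusted p = 0.0279). The ARF1 call was lost without library 1, 2, 11 or 12, that of ARF4 without library 1, 2, 3, 10 or 12, and that of ARF5 without library 1, 3, 10 or 12. ARL2, which acts with the folding factors of tubulin, fell by 2.22 (SE 0.51). ARFGEF1, which loads ARF proteins with GTP, was 1.57 higher (SE 0.69, adjusted p = 0.057). GENCODE 29 names 3 pseudogenes after ARF1 and 4 after ARF4, so their values are uncertain where counting could split reads. The 3′ end of ARF5 overlaps FSCN3 on the same strand and GCC1 on the other, with the same limit.

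**Figure D3:**
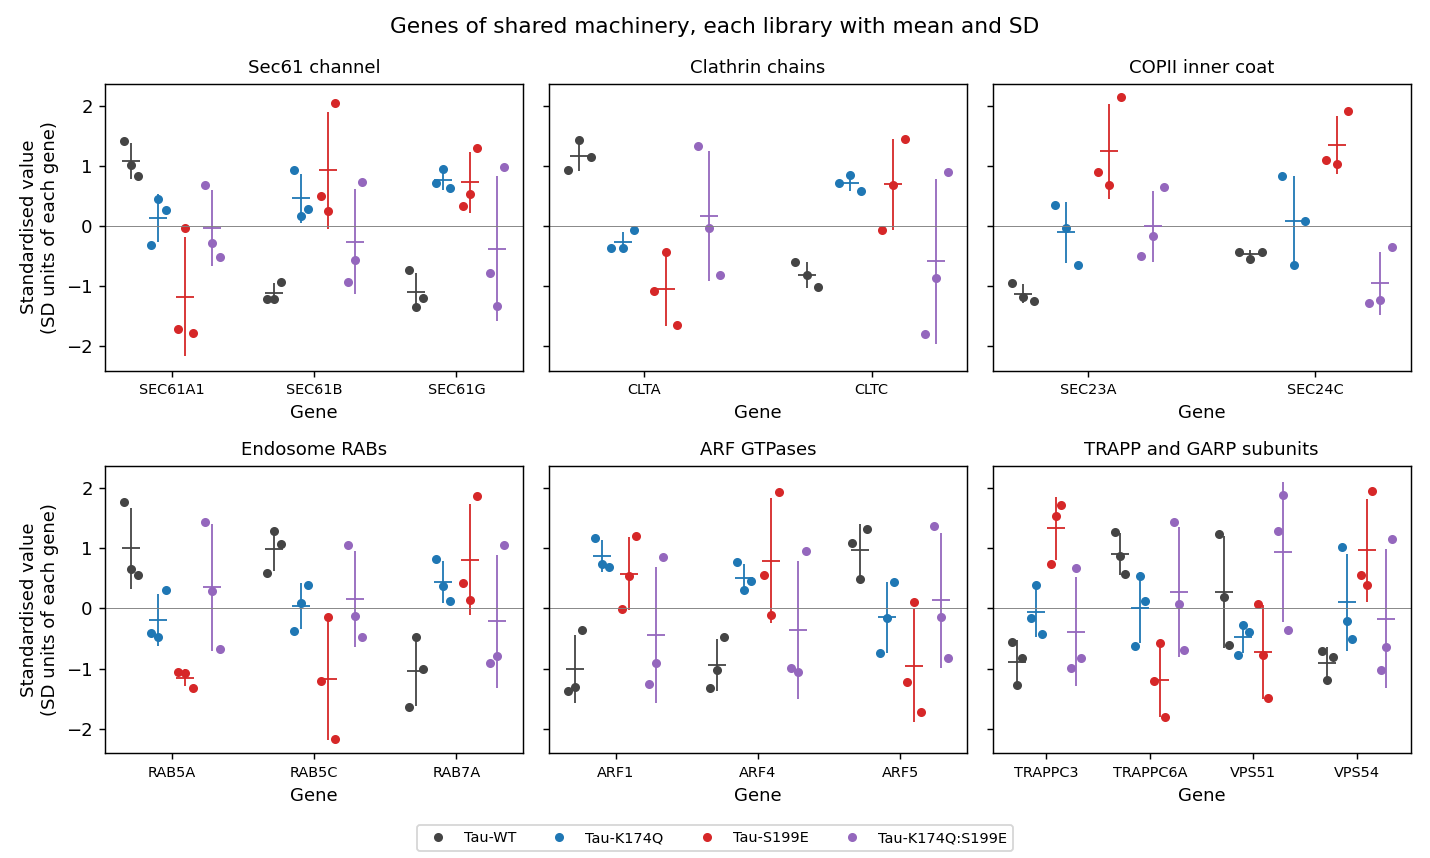
Standardised value (vertical axis, SD units of each gene) of genes whose products work in one complex or pathway, with 1 point per library and the mean and SD of each construct (n = 3). SEC61A1, CLTA, RAB5A, RAB5C, ARF5 and TRAPPC6A are lower with Tau-S199E than with Tau-WT, whereas SEC61B, SEC61G, SEC23A, SEC24C, RAB7A, ARF1, ARF4, TRAPPC3 and VPS54 are higher.

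Of the 6 tethers and Golgi matrix genes 3 rose and 3 fell with Tau-S199E (48.3% and 41.8% of the table). TRAPPC3 and TRAPPC6A encode small subunits of TRAPP, a tether and RAB activator, and they moved in opposite directions: TRAPPC3 rose by 2.22 (SE 0.49, adjusted p = 0.0102) and TRAPPC6A fell by 2.10 (SE 0.58, adjusted p = 0.0147). The TRAPPC6A call was lost without library 12 (adjusted p = 0.0517). EXOC2, of the exocyst that tethers vesicles at the plasma membrane, rose by 2.24 (SE 0.53), and GOLGA7, a partner of a palmitoyltransferase for RAS, rose by 1.70 (SE 0.63), a call lost without library 1, 3, 11 or 12. GOLGA2, the Golgi matrix protein GM130 (chromosome 9, 128255829 to 128275995, minus strand), had 1.17, 1.61 and 0.91 in the Tau-WT libraries, -0.94, -0.14 and -1.32 in those of Tau-K174Q, -0.16, 0.11 and -1.43 in those of Tau-S199E and -0.01, 0.95 and -0.75 in those of Tau-K174Q:S199E. It fell by 1.73 (SE 0.56, adjusted p = 0.0228), a call lost without library 2 or 12 (adjusted p of up to 0.0757). GENCODE 29 names 11 pseudogenes after GOLGA2, so its reads could be split. GOLGA8A (chromosome 15, 34379068 to 34437466, minus strand) had 1.24, 1.30 and 1.37 in the Tau-WT libraries, 0.26, -1.53 and -0.91 in those of Tau-K174Q, 0.51, -0.93 and -1.18 in those of Tau-S199E and 0.27, -0.24 and -0.16 in those of Tau-K174Q:S199E. The Tau-WT libraries were within a narrow range above all 9 others, and GOLGA8A fell by 1.84 (SE 0.54), a call lost without library 12 (adjusted p = 0.0595). Reads may be shared with its close copy GOLGA8B.

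Of the 8 endosome sorting genes 5 rose with Tau-S199E and 3 did not pass, where 48.3% of the table rose, 41.8% fell and 90.0% passed. VPS37A, of the ESCRT-I complex that sorts ubiquitinated cargo for lysosomes (chromosome 8, 17246571 to 17302427, plus strand), had -2.04, -1.16 and -0.49 in the Tau-WT libraries, 0.07, 1.52 and -0.02 in those of Tau-K174Q, 0.06, 1.59 and 0.61 in those of Tau-S199E and -0.16, -0.02 and 0.04 in those of Tau-K174Q:S199E. It rose by 1.98 (SE 0.57, adjusted p = 0.0163), and the libraries of the 3 mutant constructs all lay above those of Tau-WT. The 3′ end of VPS37A overlaps MTMR7 on the other strand, so its reads may be split. SNX15, a sorting nexin (chromosome 11, 65027408 to 65040572, plus strand), had -1.12, -1.02 and -1.04 in the Tau-WT libraries, 0.79, 0.83 and 0.04 in those of Tau-K174Q, 0.42, 0.37 and 1.85 in those of Tau-S199E and -0.55, -1.31 and 0.74 in those of Tau-K174Q:S199E. It rose by 1.94 (SE 0.57, adjusted p = 0.0174), and its log2 fold change of -4.26 was the largest in size among the trafficking genes in the authors' deposited table. The SNX15 call was lost without library 12 (adjusted p = 0.0577).

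SNX15 lies 5223 bases downstream of ARL2 on the same strand of chromosome 11, and an annotated read-through gene, ARL2-SNX15, spans both. This gene overlaps the 3′ end of SNX15 on the same strand, so reads of SNX15 may be split between genes. The neighbours moved in opposite directions with Tau-S199E, ARL2 by -2.22 and SNX15 by 1.94. SNX1, a sorting nexin that works with retromer (1.86, SE 0.58), and VPS13D, which transfers lipids between organelles (1.57, SE 0.64), rose. The SNX1 call was lost without library 1 or 12 and that of VPS13D without library 1, 2, 10, 11 or 12. VPS54 and VPS51 are both subunits of GARP, which tethers vesicles returning to the trans-Golgi network: VPS54 rose by 1.87 (SE 0.68, adjusted p = 0.0323), a call lost without library 1, 2, 3 or 12, whereas VPS51 had a difference of -1.0 (SE 0.70, adjusted p = 0.189). The 3′ end of VPS51 overlaps TM7SF2 on the same strand and AP003068.1 on the other, so its reads may also be split. VPS18, of the tethers that fuse endosomes with lysosomes, had -1.48 (SE 0.70, adjusted p = 0.07), and SNX7 had 1.46 (SE 0.63, adjusted p = 0.0539). Among the genes chosen by name, STXBP3, a partner of plasma membrane syntaxins, was the only one of the SNARE machinery, and it fell by 1.46 (SE 0.46, adjusted p = 0.0208), a call lost without library 1, 2 or 12. VTI1B, a SNARE of the Golgi and endosomes whose name the rule leaves out, fell by 2.24 (SE 0.52, adjusted p = 0.0104).

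Annotations deposited with the table place 20 of the 43 genes at the Golgi apparatus (46.5%, against 7.82% of the table), 11 at endosomes and 9 at the membrane of the endoplasmic reticulum. The choice by name did not use these annotations, but it took families of trafficking genes, so the high share is no independent support. Of the 9 genes of the endoplasmic reticulum membrane 8 rose with Tau-S199E and SEC61A1 fell, where 48.3% of the table rose and 41.8% fell. Nothing particular to these genes is read from so few. Of the 20 Golgi genes 10 rose and 8 fell, and of the 14 genes with GTPase activity 7 rose and 7 fell.

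Another 269 trafficking genes that the name rule leaves out were listed, and the table held 30 of them. With Tau-S199E 13 of the 30 rose and 15 fell, near the 90.0% of the table that passed (48.3% rising, 41.8% falling). None of them passed for Tau-K174Q or for Tau-K174Q:S199E against Tau-WT, where 17 and 1 had an unadjusted p under 0.05 (51.9% and 7.58% of the table). Several act on the genes above. GBF1, which activates ARF1 at the Golgi, fell by 1.99 (SE 0.56) while ARF1 rose. HPS1, part of the activator of RAB32, fell by 1.87 (SE 0.58), a call lost without library 12. CCZ1, part of the activator of RAB7, rose by 1.82 (SE 0.67), a call lost without library 1, 2, 3, 10 or 12. For COPII traffic, the GTPase SAR1A fell by 2.06 (SE 0.58), and the cargo receptors SURF4 (2.04, SE 0.54) and ERGIC2 (1.93, SE 0.57) rose, the calls of SAR1A and ERGIC2 being lost without library 12. SPCS1, another signal peptidase subunit, rose by 2.07 (SE 0.53), and SRP72 of the signal recognition particle fell by 2.02 (SE 0.59), a call lost without library 2. In the ESCRT pathway HGS, which receives cargo first, fell by 1.71 (SE 0.50), a call lost without library 12, and the late-acting CHMP5 rose by 2.08 (SE 0.52). Pairs were picked from this list after their values were seen.

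The acetylation mimic alone is seen in Tau-K174Q beside Tau-WT. None of the 43 trafficking genes passed in limma with ordinary variances (0.0% of the table), 19 had an unadjusted p under 0.05 (51.9% of the table), and limma's moderated variances called 25, 16 higher and 9 lower (59.9% of the table). Moderated variances were not used in the main test because each gene is standardised, so those 25 are shown only as an alternative. A fit on the 6 libraries compared called 19 (48.9% of the table), and without libraries 12 and 18, which belong to other constructs and enter only through the shared spread, 23 were called (58.5%). The Tau-K174Q libraries lay clear of Tau-WT in 32 of 43 genes, against 80.7% of the table. This comparison shares the Tau-WT libraries with the one before, and its sign was likewise opposite to the deposited fold change in 43 of 43 genes.

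The largest negative difference was that of STXBP3 (chromosome 1, 108746674 to 108809526, plus strand), with values of 1.88, 1.44 and 0.63 in the Tau-WT libraries, -0.91, -0.98 and -1.17 in those of Tau-K174Q, -0.02, 0.30 and -0.70 in those of Tau-S199E and -0.54, 0.73 and -0.66 in those of Tau-K174Q:S199E. The Tau-K174Q libraries were the lowest 3 of the 12, and the difference from Tau-WT was -2.34 (SE 0.46, adjusted p = 0.066). GOLGA2 followed with -2.03 (SE 0.56, adjusted p = 0.066). SNX7, a sorting nexin (chromosome 1, 98661701 to 98760500, plus strand), had the largest positive difference, 1.93 (SE 0.63, adjusted p = 0.0674). Its values were -1.25, -1.08 and -0.88 in the Tau-WT libraries, 1.43, 0.54 and 0.63 in those of Tau-K174Q, 0.27, 0.40 and 0.51 in those of Tau-S199E and -1.35, -0.65 and 1.44 in those of Tau-K174Q:S199E. ARF1 had 1.89 (SE 0.58, adjusted p = 0.066).

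The mean lay farther from Tau-WT with Tau-K174Q than with Tau-S199E in 7 genes (GOLGA8A, GOLGA2, STXBP3, SNX7, SEC61G, ARF1 and CLTC) and farther with Tau-S199E in the other 36. The share of the table for this split was not counted. The median absolute difference from Tau-WT was 1.99 with Tau-S199E and 1.32 with Tau-K174Q over all genes, against 1.87 and 1.29 for the trafficking genes. In the direct comparison of Tau-K174Q with Tau-S199E none of the 43 passed in limma (0.0597% of the table), 7 had an unadjusted p under 0.05 (16.1% of the table) and moderated variances called 0. Those 7 were RAB2A, TRAPPC3, SEC23A, SEC24C and SEC11C, lower with Tau-K174Q, and SEC61A1 and AP5B1, higher. RAB2A differed most, by -1.79 (SE 0.36, adjusted p = 0.147), and its difference from Tau-WT was 0.32 (SE 0.36) with Tau-K174Q beside 2.11 with Tau-S199E. For SEC23A the difference was -1.35 (SE 0.46) and for AP5B1 1.44 (SE 0.49), each with an adjusted p of 0.26.

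The construct with both changes was then set beside Tau-WT. None of the 43 genes passed in limma (0.0% of the table), 3 had an unadjusted p under 0.05 (7.58% of the table) and moderated variances called 0. The 3 were STXBP3 at -1.48 (SE 0.46), GOLGA8A at -1.34 (SE 0.54) and SEC23A at 1.12 (SE 0.46), each with an adjusted p of 0.533. VPS37A had the largest positive difference, 1.18 (SE 0.57). The libraries did not overlap in 4 of 43 genes (11.6% of the table). The median absolute difference was 0.69 SD units, against 1.87 with Tau-S199E and 1.29 with Tau-K174Q. Over all genes of the table it was 0.65, against 1.99 and 1.32.

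The mean of Tau-K174Q:S199E lay nearer to Tau-WT than to Tau-S199E in 37 of 43 genes, and in 40 without library 18 (85.9% and 97.0% of the table). The deposited sign was opposite to that of Tau-S199E minus Tau-WT in 43 of 43 genes. It was opposite to that of Tau-K174Q:S199E minus Tau-S199E in 1 of 43. The table was chosen by that deposited contrast, so these counts are descriptions and not independent evidence. Against Tau-S199E none of the 43 passed in limma (0.119% of the table), 22 had an unadjusted p under 0.05 (56.4%), and moderated variances called 28, 18 lower and 10 higher (68.8%). Without library 18, 35 passed, 24 lower and 11 higher (78.5% of the table), so that this count rested on that library, and without libraries 12 and 18 there were 21 (43.6%). The libraries did not overlap in 17 of 43 genes (43.4% of the table). SEC24C was 2.30 lower than with Tau-S199E (SE 0.42, adjusted p = 0.0644), RAB2A 2.17 lower (SE 0.36) and AP5B1 1.80 higher (SE 0.49). Against Tau-K174Q none passed (0.0% of the table), 2 had an unadjusted p under 0.05 (8.23%), moderated variances called 0, 4 passed without library 18 (8.47%) and 14 without libraries 12 and 18 (26.9%).

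**Figure D4:**
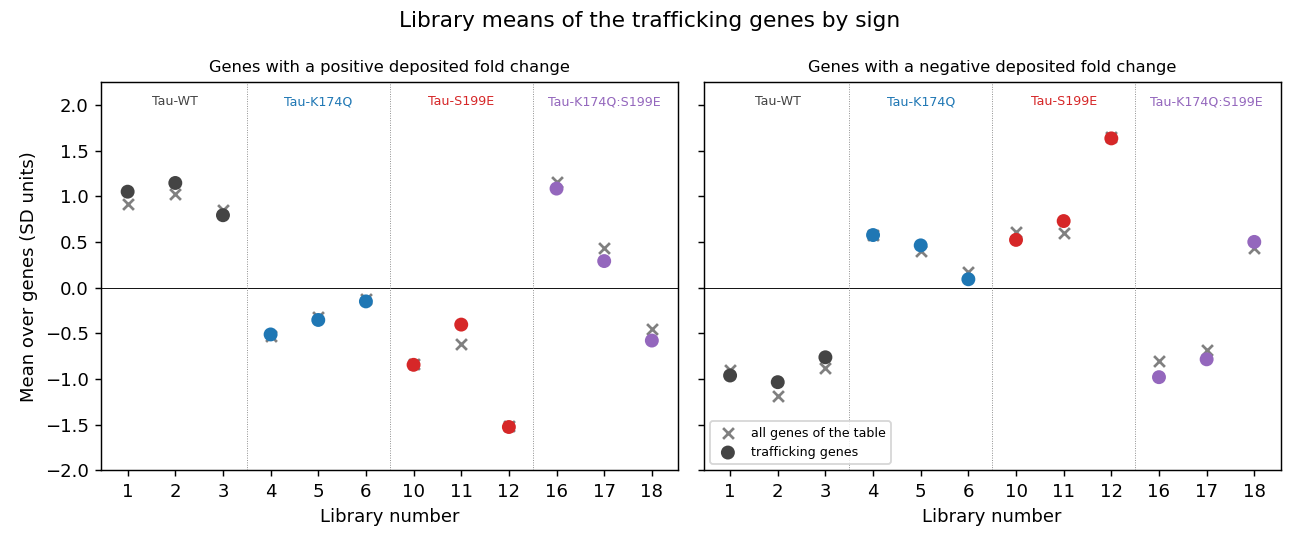
Mean standardised value in each library (SD units) over the 17 trafficking genes with a positive and the 26 with a negative deposited fold change (coloured points), beside all genes of the table with that sign (grey crosses). The trafficking genes follow the table, with library 12 farthest from Tau-WT and library 18 on the other side of 0 from libraries 16 and 17.

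The K174Q by S199E interaction is the effect of K174Q with S199E present minus its effect without. It passed in 42 of the 43 genes, 17 positive and 25 negative (97.0%, 45.5% and 51.5% of the table). Without library 12, 30 passed (77.4% of the table), without library 18, 43 (97.1%), and without both, 40 (93.3%). The same 42 had an unadjusted p under 0.05 (97.1% of the table). Its sign equalled that of the deposited fold change in all 43, so nothing is read from these counts. VPS54 was the exception, at -2.14 (SE 0.97, adjusted p = 0.0589).

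For the log2 fold change in the authors' deposited table, 17 of the 43 genes had a positive and 26 a negative sign, or 60.5% negative, against 52.9% of all genes. The median size was 1.43, against 1.36 over the table, with a range from 0.52 (RAB2A) to 4.26 (SNX15). Over the 17 genes with a positive sign the Tau-WT libraries had means of 1.0 ± 0.18, those of Tau-K174Q -0.34 ± 0.18, those of Tau-S199E -0.93 ± 0.57 and those of Tau-K174Q:S199E 0.27 ± 0.83 (SD over 3 libraries). Over the 26 with a negative sign they were -0.92 ± 0.14, 0.38 ± 0.25, 0.96 ± 0.59 and -0.42 ± 0.81 in the same order. Without library 18 the Tau-K174Q:S199E means were 0.69 ± 0.56 and -0.88 ± 0.14, and without library 12 the Tau-S199E means were -0.62 ± 0.31 and 0.63 ± 0.15, for the positive and the negative sign (SD, n = 2 each). Over all table genes with a positive sign the means were 0.93 (Tau-WT), -0.32 (Tau-K174Q), -0.99 (Tau-S199E) and 0.38 (Tau-K174Q:S199E). With a negative sign they were -0.99, 0.39, 0.96 and -0.35 in that order. The sign was opposite to the difference of each single substitution from Tau-WT in 43 of 43 trafficking genes. The order of these means is therefore a description and not independent evidence. The authors placed 11 of the genes in cluster 1, 6 in cluster 2, 11 in cluster 3 and 15 in cluster 4. These are 25.6%, 14.0%, 25.6% and 34.9% of the trafficking genes, against 31.9%, 15.2%, 21.1% and 31.8% of the table. Cluster 3 held SEC61B, SEC61G, ARF1, ARF4, RAB7A, CLTC and the sorting nexins SNX1, SNX7 and SNX15. Cluster 4 held SEC11A, SEC11C, SEC23A, SEC24C and RAB2A.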

How the data were processed

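Standardised values of 12 libraries (3 for each of 4 tau constructs, SH-SY5Y cells, a 3′ mRNA kit, 400 ng RNA input per the labels' protocols) were read from 1 deposited table of 1676 genes. Each library column is a score: the authors standardised every gene to mean 0 and SD 1 over the 12 libraries, as the deposited values show. The table also gives a log2 fold change and an adjusted p-value, per the file headers, for a contrast that the headers do not name, and a cluster number. DESeq2, RSEM 1.2.31, STAR 2.5.3a and the build GRCh38 are listed, without roles, per the submitters' processing notes, and the strand setting is not given in the sources used here. Depth is unknown. Such values allow no count model, scaling factor, pseudocount or low-value filter.

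Column names give the construct and a library number, not the replicate number, and the labels do not tie libraries to separate cultures. The p-values therefore reflect spread between libraries that may be technical. A linear model with a mean for each construct was fitted to the whole table with limma 3.58.1 (R 4.3.3), with the ordinary residual variance of each gene (8 residual degrees of freedom), two-sided, Benjamini-Hochberg over 1676 genes, threshold 0.05, and was tested on simulated data. Alternatives were moderated variances, a fit on 6 libraries, and leaving out libraries. Moderated variances share spread across genes and were kept out of the main test because the values are standardised by gene. Members, roles and lists were chosen with earlier results of these data known. Values in every library are printed for the 3 genes of each sign with the smallest deposited adjusted p and the 2 largest differences in each direction from Tau-WT, and for RAB2A, which was added after its values were seen. Gene positions and types are from GENCODE 29 (GRCh38), and promoters from RefSeq (GRCh38.p14). For 1 of the 43 genes, the values enter the counts but not reported here.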

Additional observations from a re-analysis of the deposited data

Results flagged for a closer look

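The K174Q by S199E interaction, the difference between the effect of K174Q with S199E present and its effect without, passed in 42 of the 43 trafficking genes (limma, adjusted p under 0.05), where 97.0% of the table passed. Its sign equalled that of the deposited fold change in all 43. The deposited contrast is not named, and its sign was also opposite to each single substitution minus Tau-WT in all 43. The table was chosen by that contrast, so the count is a description and not independent evidence. A negative value means that Tau-K174Q:S199E lay below the value that adding the separate effects would give. Each gene below is given because its interaction passed. Of the 42 calls, 12 were lost without library 12: VPS51, ARF5, VPS18, ARFGEF1, RAB7A, SEC11A, ARF4, SEC61A1, RAB5C, SNX7, TRAPPC6A and VPS13D. From these 12 genes, calls were also lost without library 1 (8), 2 (7), 3 (5), 4 (10), 5 (7), 6 (2), 10 (3), 11 (2), 16 (9) or 17 (7). VPS51 and ARF5 passed in 3 of the 12 fits that left out 1 library, VPS18 in 4, ARFGEF1, RAB7A and SEC11A in 5 and ARF4 in 6. Values are in SD units.

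Among RAB genes the interaction was 2.70 for RAB5A, 2.27 for RAB5C, 2.50 for RAB34, 2.71 for RAB29 and 2.92 for RAB24. It was -2.78 for RAB3GAP1, -2.50 for RAB7A, -2.48 for RAB2A, -2.79 for RAB32, -2.87 for RAB35 and -3.07 for RAB5IF. In the ARF family it was 2.68 for ARL2 and 2.20 for ARF5, and -2.90 for ARF1, -2.61 for ARF4 and -2.60 for ARFGEF1. Among coat genes it was 2.53 for AP5B1, 2.91 for AP1S3 and 2.65 for CLTA, and -2.81 for CLTC, -2.86 for SEC24C and -2.27 for SEC23A. STXBP3 had 2.32. Tethers and Golgi matrix genes had 2.36 (TRAPPC6A), 2.52 (GOLGA8A), 2.59 (GOLGA2), -2.55 (TRAPPC3), -2.75 (GOLGA7) and -2.54 (EXOC2). Endosome sorting genes had 2.43 (VPS51), 2.60 (VPS18), -2.56 (VPS37A), -2.82 (SNX1), -2.51 (SNX7), -2.87 (SNX15) and -2.68 (VPS13D). The Sec61 channel and the signal peptidase had 2.09 (SEC61A1), -2.96 (SEC61G), -2.76 (SEC61B), -2.48 (SEC11A) and -2.52 (SEC11C).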

How the results depend on the processing

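No paired analysis was possible because the columns carry library numbers and not the replicate numbers of the labels. Of the 43 trafficking genes, 38 passed with Tau-S199E against Tau-WT (90.0% of the table). The count was 42 with moderated variances (98.4%) and 33 on 6 libraries (72.0%, 30 shared). Without libraries 12 and 18, chosen after seeing the data, it was 33 (79.4%, 31 shared). With any 1 library left out it was 19 to 35, the 19 without library 12 (49.7%). The share of the table was not counted for the 35. The interaction count was 42 (97.0% of the table). With any 1 left out it ran from 30 (without library 12, 77.4%) to 43 (without library 18, 97.1%). For Tau-K174Q against Tau-WT the count of 0 became 25 with moderated variances (59.9% of the table) and 19 on 6 libraries (48.9%). It became 23 without libraries 12 and 18 (58.5%) and stayed at 0 with any 1 library left out. For Tau-K174Q:S199E against Tau-S199E it became 28 with moderated variances (68.8% of the table) and 21 without both libraries (43.6%). It was 0 to 35 with any 1 left out, the 35 without library 18 (78.5%). For Tau-K174Q:S199E against Tau-K174Q it became 14 without both (26.9% of the table), and was 0 to 4 with any 1 left out, the 4 without library 18 (8.47%). No difference that passed with all 12 libraries and ordinary variances changed sign under these alternatives. Counts for Tau-K174Q:S199E against Tau-WT and for Tau-K174Q against Tau-S199E stayed at 0 in all of them. The cause of these differences was not tested.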
